A study of Homo sapiens with 2 samples.

Results

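The extracellular proteases encoded outside the metalloproteinase cluster at 11q22, together with their inhibitors, were examined in ovarian carcinoma cells with suppressed RUNX2. The set held 39 genes in 7 classes, namely metalloproteinases of the MMP, ADAM and ADAMTS families, the TIMPs with RECK and basigin, the plasminogen activation system with its serpins, and cysteine cathepsins. The genes were found through the RefSeq accessions that the arrays give for their probes, and all 39 were matched, through 52 probes. In all, 17240 genes were named on the arrays in this way. SKOV3 is a human ovarian adenocarcinoma cell line. Total RNA of cl-sh3, a single SKOV3 clone stably transduced with a lentiviral pLKO.1-puro vector carrying a shRNA against RUNX2, was compared with that of a control clone, which carried the same vector with a scramble sequence. Both clones were selected with puromycin. RNA of both clones was hybridized to 2 Agilent Whole Human Genome arrays with the dyes reversed between them (dye swap). The clone cl-sh3 was labelled with Cy5 in hybridization 1 and with Cy3 in hybridization 2. The labels name no further extract or culture, so the 2 hybridizations were treated as 1 biological replicate. No test between the clones was possible, and differences between the single clones cannot be told apart from the effect of the shRNA.

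Extracellular proteases cut the collagens, proteoglycans and adhesion proteins that surround tumour cells, release growth factors from the matrix and the cell surface, and activate each other in cascades. Their activity is held in check by TIMPs, which block metalloproteinases, and by serpins, which trap serine proteases in a covalent complex. RUNX2 is a transcription factor that binds its sites in DNA through the runt domain, and it is known in bone for driving MMP13, often at promoters that also hold sites for AP-1.

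Promoter sequence from RefSeq (GRCh38.p14), covering the 250 bases before a start site, was at hand for 22 of the 39 genes in 25 windows. Not held were those of MMP2, MMP9, MMP16, MMP17, MMP19, MMP25, MMP28, TIMP2, ADAM9, ADAMTS1, ADAMTS4, ADAMTS5, ADAMTS9, PLAT, ST14, CTSB and CTSK. The letters TGTGGT, the core recognised by RUNX proteins, were searched on both strands (ACCACA on the other) and were found in the windows of 3 genes, TIMP1, MMP14 and ADAM19. That was 12.0% of the 25 windows, and 11% of all 35116 promoter windows of this length held the same letters. The AP-1 letters TGANTCA, which read the same on both strands, were found for PLAUR and SERPINB2, against 6.57% of all windows. Both SERPINE2 windows and the CTSL window held neither set of letters. They are shown because these genes had some of the lowest ratios of the set, and the other 3 because they held the RUNX letters, which are in capitals. Sequences run 5′ to 3′ on the strand of the gene and end just before the start site. A match is a description of the letters and does not show that RUNX2 binds there.
SERPINE2, inner start (chr2:224031479-224031728, minus strand): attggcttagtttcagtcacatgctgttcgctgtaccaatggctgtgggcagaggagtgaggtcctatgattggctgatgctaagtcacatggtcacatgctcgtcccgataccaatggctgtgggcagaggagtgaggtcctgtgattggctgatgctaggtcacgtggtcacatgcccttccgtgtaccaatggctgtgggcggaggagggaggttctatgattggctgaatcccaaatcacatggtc
SERPINE2, outer start (chr2:224038641-224038890, minus strand): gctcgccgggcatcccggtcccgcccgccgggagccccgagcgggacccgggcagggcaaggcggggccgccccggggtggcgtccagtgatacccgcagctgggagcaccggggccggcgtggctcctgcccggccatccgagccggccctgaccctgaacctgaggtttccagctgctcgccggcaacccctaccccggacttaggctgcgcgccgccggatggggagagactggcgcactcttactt
CTSL (chr9:87725869-87726118, plus strand): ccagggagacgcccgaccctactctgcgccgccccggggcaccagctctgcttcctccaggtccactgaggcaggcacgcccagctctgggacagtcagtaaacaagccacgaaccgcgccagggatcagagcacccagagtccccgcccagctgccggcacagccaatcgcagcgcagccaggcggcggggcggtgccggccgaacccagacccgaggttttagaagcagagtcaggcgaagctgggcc
TIMP1 (chrX:47582186-47582435, plus strand): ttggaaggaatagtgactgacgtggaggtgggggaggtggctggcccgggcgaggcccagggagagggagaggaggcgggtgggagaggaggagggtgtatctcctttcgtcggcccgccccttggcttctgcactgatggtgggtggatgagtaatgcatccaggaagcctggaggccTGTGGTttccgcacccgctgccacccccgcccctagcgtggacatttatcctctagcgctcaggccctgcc
MMP14 (chr14:22836335-22836584, plus strand): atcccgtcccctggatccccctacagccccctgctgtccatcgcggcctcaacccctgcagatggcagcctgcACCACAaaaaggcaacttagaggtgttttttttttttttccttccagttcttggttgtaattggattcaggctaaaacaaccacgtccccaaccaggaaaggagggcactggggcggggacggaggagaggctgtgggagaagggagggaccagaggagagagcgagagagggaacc
ADAM19 (chr5:157575776-157576025, minus strand): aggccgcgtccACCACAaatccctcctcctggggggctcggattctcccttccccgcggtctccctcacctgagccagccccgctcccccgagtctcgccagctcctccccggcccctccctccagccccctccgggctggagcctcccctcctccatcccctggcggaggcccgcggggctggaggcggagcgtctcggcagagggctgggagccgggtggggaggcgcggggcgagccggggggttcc

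None of the 39 genes met the criterion of a 2-fold difference in the same direction in both hybridizations. The log2 ratio of cl-sh3 over control, with its sign turned in the dye swap, stands for each gene's brightest probe. For each of the 39 genes this probe passed the filter on signal, which asked that the scanner software call either RNA well above background, in hybridization 1 and again in hybridization 2. Among the 16149 genes that passed the same filter, 84 (0.52%) met the criterion downwards and 22 (0.136%) upwards. With median centring in place of the intensity-dependent (loess) normalization, these counts became 73 and 44. At a lower bar of 1.5-fold, chosen after the values were seen, SERPINE2 and ADAMTS1 were lower in both hybridizations and no gene of the set was higher. That bar was passed by 2.61% of all genes downwards and by 1.6% upwards. A lower ratio can stand for less transcript in each cell or for fewer cells that make it, and in RNA from a whole culture these cannot be told apart.

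The targeted gene, RUNX2 (chromosome 6), was lower in cl-sh3 by its brightest probe, with log2 ratios of -2.04 in hybridization 1 and -1.30 in hybridization 2. Its other 2 probes had mean ratios of 0.02 and -0.23 and did not follow the brightest one. They were dimmer, with mean log2 intensities of 8.36 and 7.58 against 10.37. For the dimmest, the control RNA was not well above background in hybridization 2, so it could hardly have shown such a fall. The study reports lower RUNX2 mRNA and protein in this clone by RT-PCR and Western blot. The markers of the labelled cell type were present, as all 6 epithelial genes, KRT7, KRT8, KRT18, KRT19, EPCAM and CDH1, had 4 of 4 signals well above background. All 6 were higher in cl-sh3 in both hybridizations, with mean log2 ratios from 0.34 to 0.83. The 5 ovarian carcinoma genes, MUC16, WT1, PAX8, MSLN and ERBB2, also had 4 of 4 signals well above background. ERBB2 had negative log2 ratios, -0.86 and -0.45, and the others had mean ratios from -0.07 to 0.03. Only PAX8 and ERBB2 were bright, with mean log2 intensities of 14.68 and 16.41. MUC16, WT1 and MSLN had 7.68, 7.90 and 7.59, beside 7.71 for the leukocyte gene PTPRC. At this signal their presence is uncertain, and ratios near 0 do not show equal transcript. The flag was lenient, since the leukocyte genes PTPRC, CD3E, CD14 and ITGAM also carried it in all 4 signals, with mean log2 ratios from -0.02 to 0.19. Of the 5 fibroblast genes matched, COL1A2, DCN and PDGFRB were lower in both hybridizations, the last without a signal well above background, and the 5 had mean log2 ratios from -0.30 to 0.08. The part of these marker differences in the values below was not tested.

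Across the set, 17 genes were higher in cl-sh3 in both hybridizations, 8 were lower in both, and 14 changed sign between the hybridizations. As shares these were 43.6% higher and 20.5% lower, beside 30.9% and 28.4% over all genes. Some of these signs rested on values near 0 and turned with the processing. ST14 was lower in both with the ratios of the scanner software (-0.05 and -0.06). With median centring, TIMP2 was higher in both (0.06 and 0.50) and TIMP4 changed sign (0.06 and -0.15). The median mean log2 ratio was 0.03 for the 39 genes and 0.01 for all genes. The hybridizations of 1 gene differed by a median of 0.22 log2 units in the set and 0.23 over all genes, with 95% of all genes under 0.64. Most protease genes therefore lay within the difference between the 2 hybridizations. The mean ratio was under 0.2 in size for 25 of the 39 genes (64.1%, against 61.4% of all genes). It was over 0.5 in size for 6 genes (15.4%, against 10.7%), of which SERPINE2, ADAMTS1, CTSL and ADAMTS6 were lower and ADAMTS5 and ADAMTS9 were higher.

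**Figure D1:**
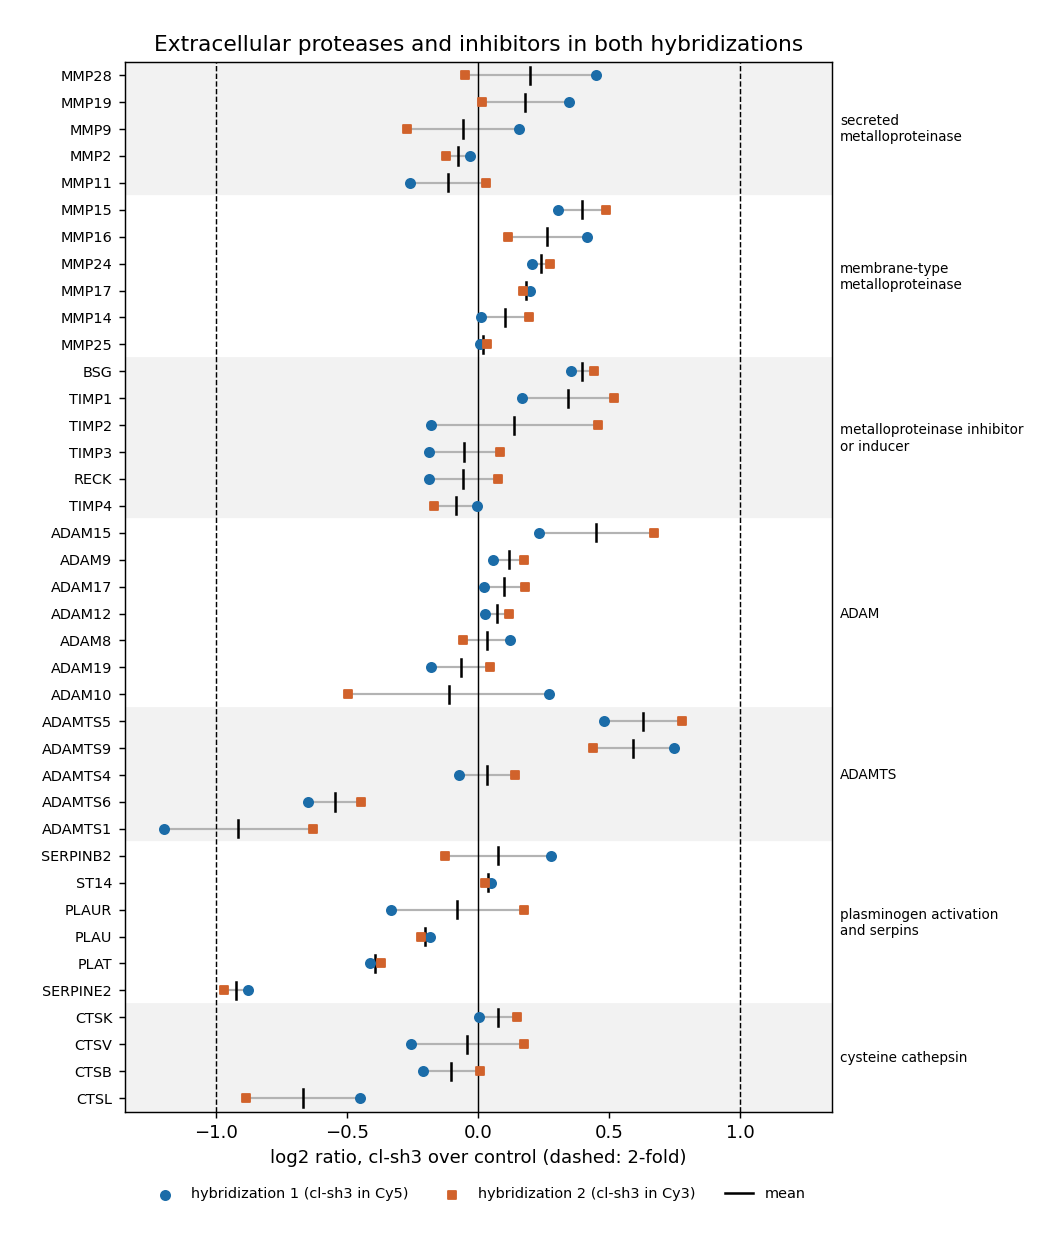
Log2 ratio of cl-sh3 over control (x axis, log2 units) for the 39 genes, grouped by class, in hybridization 1 (circles) and hybridization 2 (squares), with the mean of both as a black tick and the 2-fold difference as dashed lines. The largest departures from 0 were those of SERPINE2 (mean -0.92), ADAMTS1 (-0.92) and CTSL (-0.67) to the left and ADAMTS5 (0.63) and ADAMTS9 (0.59) to the right, and ADAMTS1 passed the 2-fold line in hybridization 1 only.

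The 11q22 cluster gave the contrast. MMP1 (interstitial collagenase) had log2 ratios of -2.82 and -2.91, and MMP13 (collagenase 3) had -2.27 and -2.21. The cl-sh3 signal of MMP13 was not well above background in hybridization 1, and its mean ratio ran from -3.81 with the ratios of the scanner software to -1.64 without background correction, so that its size is uncertain. The other 7 metalloproteinases of the cluster had mean ratios between -0.16 and 0.22, a span within that of the 39 genes encoded elsewhere. The 39 genes ran from -0.92 to 0.63 by their mean ratios. Hence none of the collagenolytic, gelatinolytic or membrane-bound metalloproteinases encoded elsewhere had a ratio near that of MMP1 or MMP13. This contrast was limited by signal for MMP2, MMP11, MMP14 and MMP24. Their mean log2 intensities, over both RNAs and hybridizations, ran from 7.15 to 7.83, beside 7.71 for the leukocyte gene PTPRC. A large fall could hardly have been seen for these genes. MMP16 and MMP25 were little brighter, with control levels of 8.14 and 8.29, and of 8.15 and 8.12. The cl-sh3 levels of MMP13 were 6.73 and 6.78, so a fall like that of MMP13 could hardly have been seen for them either. Some of the other 7 genes of the cluster were as dim, with mean log2 intensities down to 7.21.

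**Figure D2:**
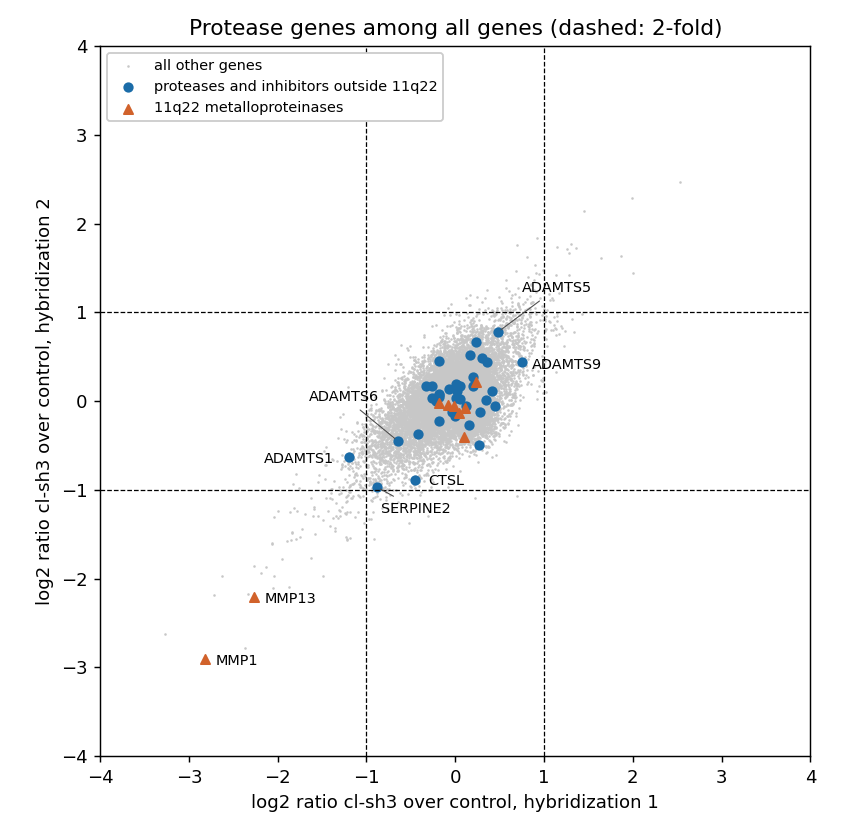
Log2 ratio of cl-sh3 over control in hybridization 1 (x axis) against hybridization 2 (y axis) for all 16149 genes (grey), the 39 protease and inhibitor genes (blue circles) and the 9 metalloproteinases of 11q22 (orange triangles), with dashed lines at 2-fold. MMP1 and MMP13 lie in the lower left corner beyond 2-fold on both axes, and no blue circle does.

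Among the secreted metalloproteinases, both gelatinases had mean log2 ratios near 0. MMP2, which degrades denatured collagen and the collagen of basement membranes, had log2 ratios of -0.03 and -0.13. The array held 10 spots of its probe, and they scattered with an SD of 0.12 in each hybridization. The MMP2 signal was weak, with a mean log2 intensity of 7.68, beside 7.71 for the leukocyte gene PTPRC. At this signal, a ratio near 0 does not show that MMP2 transcript was equal. MMP9, the other gelatinase, had ratios of 0.15 and -0.27, with SDs between its 10 spots of 0.09 and 0.10. Its sign thus turned with the dyes by more than the scatter between spots. MMP11 (stromelysin-3) had -0.26 and 0.03, but its control RNA was well above background in hybridization 1 only. MMP28 (epilysin) had 0.45 and -0.05. MMP19 had 0.34 and 0.01 by its brightest probe, while its 2 other probes disagreed. The middle one had a mean ratio of 0.00, and the dimmest had -0.60 and -0.70, which is over 1.5-fold lower in both hybridizations. No direction could be given for MMP19 here, while the study names it among the genes downregulated after RUNX2 knockdown.

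The 6 membrane-type metalloproteinases act at the cell surface. All 6 were higher in cl-sh3 in both hybridizations, by small margins, beside 30.9% of all genes. This was lost for MMP14 in hybridization 1 under other processing (-0.12 with median centring, -0.10 without background correction, -0.20 with the ratios of the scanner software) and for MMP25 in hybridization 2 with the latter ratios (-0.03). MMP15 had the highest mean of the class, with 0.30 and 0.49, corresponding to 1.32-fold by the mean. Its log2 levels after scaling of the channels were 10.98 in cl-sh3 and 10.68 in control in hybridization 1, and 11.06 and 10.57 in hybridization 2. A second, dimmer MMP15 probe had 0.21 and -0.15 and did not keep the direction. MMP16 had 0.41 and 0.11, and MMP24 had 0.20 and 0.27. The GPI-anchored members were MMP17, with 0.20 and 0.17, and MMP25, with 0.01 and 0.03. MMP14, the activator of pro-MMP2, had 0.01 and 0.19, and its control RNA was not well above background in hybridization 2. None of the 6 reached 1.5-fold in either hybridization.

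Among the inhibitors and inducers, TIMP1 and BSG were higher in both hybridizations. TIMP1, a secreted inhibitor of most metalloproteinases, had log2 ratios of 0.16 and 0.52. Its log2 levels were 11.95 in cl-sh3 and 11.78 in control in hybridization 1, and 11.99 and 11.47 in hybridization 2. BSG (basigin or EMMPRIN), a surface glycoprotein that induces metalloproteinases in neighbouring cells, had 0.35 and 0.44, or 1.32-fold by the mean. A second BSG probe had 0.01 and 0.59. TIMP2, which both inhibits MMP2 and helps MMP14 to activate it, had -0.18 and 0.45, so that its direction turned with the dyes. TIMP3, bound to the matrix, had -0.19 and 0.08. TIMP4 had 0.00 and -0.17, and RECK, an inhibitor anchored in the membrane, had -0.19 and 0.07. By the brightest probe, none of these 6 genes reached 1.5-fold in either hybridization.

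The 7 ADAM genes encode membrane proteases that shed growth factors, cytokines and adhesion molecules. ADAM15 had the highest mean of the class, with 0.23 and 0.67, corresponding to 1.37-fold by the mean. Its mean log2 ratio depended on the processing, from 0.43 without background correction to 0.68 with the ratios of the scanner software. The main sheddases are ADAM17, which releases TNF and ligands of EGFR, and ADAM10, which cuts Notch and E-cadherin. ADAM17 had 0.02 and 0.18 by its brightest probe and 0.20 and -0.22 by another. ADAM10 had 0.27 and -0.50. The latter gap of 0.77 log2 units was the widest of the 39 genes, and it straddled 0. ADAM9 had 0.06 and 0.17, ADAM12 had 0.02 and 0.12, ADAM8 had 0.12 and -0.06, and ADAM19 had -0.18 and 0.05. A second, dimmer ADAM12 probe, assigned to another transcript of the gene, had -0.11 and -0.21. Its control RNA was not well above background in hybridization 2. By the brightest probe, 4 of the 7 genes were higher in both hybridizations and none lower, beside 30.9% and 28.4% of all genes. The second probes of ADAM17 and ADAM12 did not keep that direction.

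The ADAMTS proteases, secreted enzymes several of which cut aggrecan and versican, held 4 of the 6 genes with a mean ratio over 0.5 in size, in opposite directions. ADAMTS1 had log2 levels of 10.92 in cl-sh3 and 12.12 in control in hybridization 1, and of 11.65 and 12.28 in hybridization 2. Its log2 ratios were -1.20 and -0.63, or 1.89-fold lower by the mean. A second ADAMTS1 probe gave -1.08 and -0.60, so that 2 separate probes passed 2-fold in hybridization 1 and fell short of it in hybridization 2. By its mean, ADAMTS1 ranked 185 from the lowest of the 16149 genes.

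ADAMTS5, an aggrecanase, was higher in cl-sh3. Its log2 levels were 13.05 in cl-sh3 and 12.57 in control in hybridization 1, and 13.09 and 12.31 in hybridization 2. The log2 ratios were 0.48 and 0.78, or 1.55-fold higher by the mean, which ranked 343 from the highest. ADAMTS1 and ADAMTS5 are next to each other in the order of protein-coding genes on chromosome 21 (RefSeq), and their ratios had opposite signs. ADAMTS9, which cuts versican and aggrecan, had levels of 11.68 and 10.93 in hybridization 1 and of 11.67 and 11.24 in hybridization 2. Its ratios were 0.75 and 0.44, or 1.51-fold higher by the mean. A second, much dimmer ADAMTS9 probe had -0.03 and 0.11 and did not share the difference.

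ADAMTS6 and ADAMTS4 gave weak signals. ADAMTS6 had ratios of -0.65 and -0.45 at log2 levels of 7.10 to 7.75. Its mean ratio depended on how background was treated and ran from -1.10 with the ratios of the scanner software to -0.27 without background correction. Its other probe had neither RNA well above background in both hybridizations and read 0.13 and 0.15. ADAMTS4, another aggrecanase, had -0.07 and 0.14, with the control RNA not well above background in hybridization 2.

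**Figure D3:**
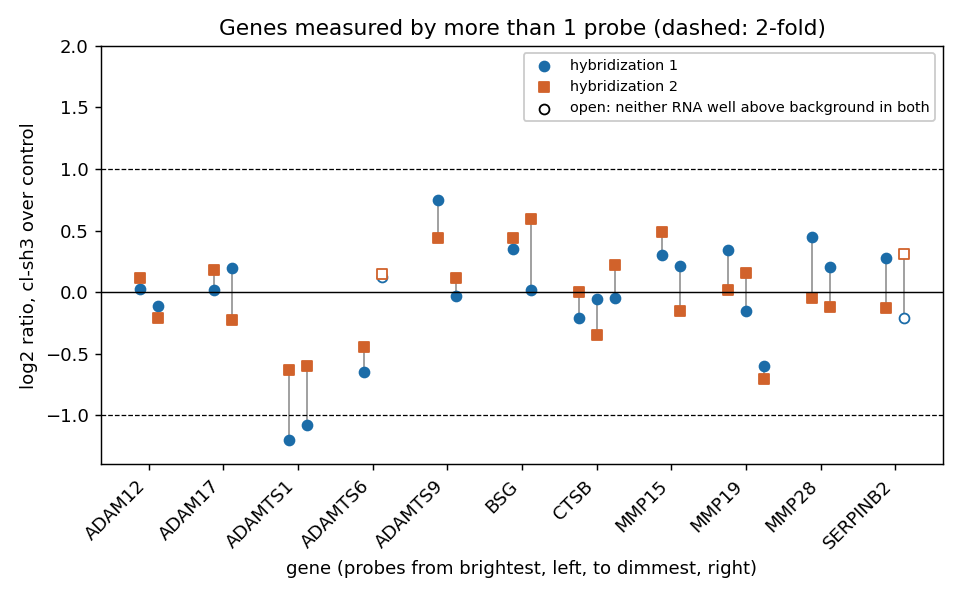
Log2 ratio of cl-sh3 over control (y axis) of every probe of the 11 genes that had more than 1 (x axis, brightest probe left), in hybridization 1 (circles) and 2 (squares), with open symbols where neither RNA was well above background in both. Both ADAMTS1 probes are low in both hybridizations, while the dimmer probes of ADAMTS6, ADAMTS9 and MMP19 lie over 0.5 log2 units from the brightest.

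In the plasminogen system, PLAT and the inhibitor SERPINE2 were lower in cl-sh3 in both hybridizations. PLAU (urokinase), which turns plasminogen into plasmin at the cell surface, had log2 ratios of -0.19 and -0.22, with SDs between its 10 spots of 0.12 and 0.16. PLAT (tissue plasminogen activator) had -0.42 and -0.37, with SDs between its 10 spots of 0.17 and 0.11, or 1.31-fold lower by the mean. Neither activator reached 1.5-fold. With median centring in place of loess, PLAU had 0.14 and -0.20, so that its direction in hybridization 1 depended on the normalization. PLAUR, the receptor that holds urokinase at the surface, had -0.33 and 0.17.

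SERPINE2 (protease nexin-1), a serpin that inhibits thrombin and both plasminogen activators, had the lowest mean ratio of the set. Its log2 levels were 13.28 in cl-sh3 and 14.16 in control in hybridization 1, and 13.39 and 14.36 in hybridization 2. The log2 ratios were -0.88 and -0.97, or 1.90-fold lower by the mean, and lay 0.09 log2 units from each other. By its mean it ranked 180 from the lowest of the 16149 genes. It stayed short of 2-fold in both hybridizations, unlike ADAMTS1. With the ratios of the scanner software, however, SERPINE2 had -0.86 and -1.08 and so passed 2-fold in hybridization 2. Its 2 promoter windows shown above lacked both sets of letters searched. SERPINB2 (plasminogen activator inhibitor 2) had 0.28 and -0.13, and ST14 (matriptase), a membrane serine protease of epithelia, had 0.05 and 0.02.

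Of the 4 cysteine cathepsins, lysosomal proteases that tumour cells can also secrete, CTSL alone departed from 0 by over 0.5. Its log2 levels were 14.18 in cl-sh3 and 14.63 in control in hybridization 1, and 13.90 and 14.79 in hybridization 2. Its log2 ratios were -0.45 and -0.89, or 1.59-fold lower by the mean, which ranked 514 from the lowest. CTSV, its close relative, did not share this, with -0.26 and 0.17. CTSB had -0.21 and 0.00, and its 2 other probes had means of -0.20 and 0.09. CTSK, a collagen-degrading cathepsin of osteoclasts, had 0.00 and 0.15.

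**Figure D4:**
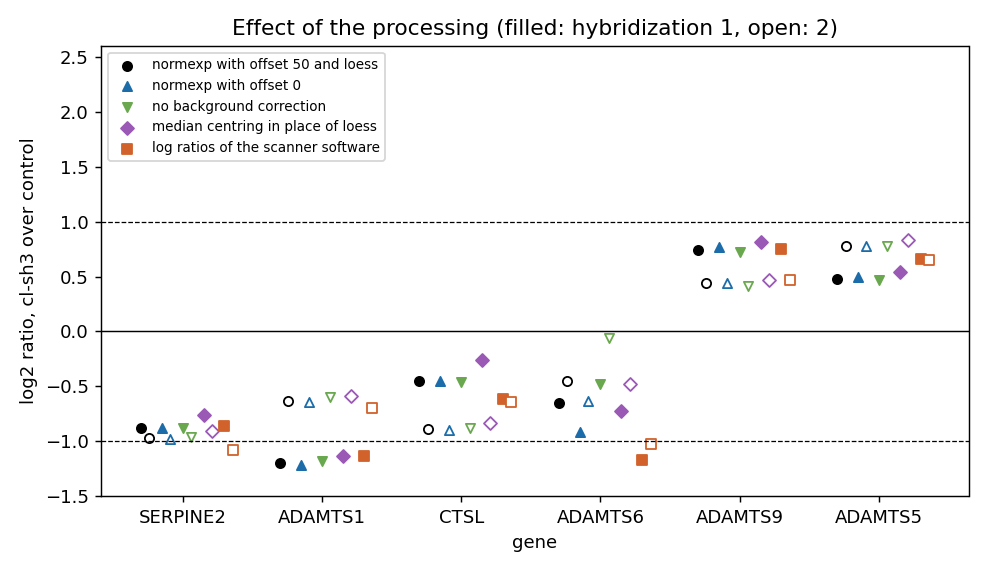
Log2 ratio of cl-sh3 over control (y axis) of the 6 genes with a mean over 0.5 in size (x axis) under 5 ways of processing (symbols), in hybridization 1 (filled) and 2 (open), with dashed lines at 2-fold. The values of SERPINE2, ADAMTS1, CTSL, ADAMTS9 and ADAMTS5 stay on 1 side of 0 by over 0.2, and those of ADAMTS6 spread most, from -1.17 to -0.06.

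Of 112 further genes for extracellular proteases and inhibitors, 110 were matched and 101 passed the filter on signal. None was at least 2-fold or at least 1.5-fold different in 1 direction in both hybridizations, against the shares of all genes given above. Higher in both were 39 of the 101 and lower in both 18, beside 30.9% and 28.4% over all genes. Their median mean log2 ratio was 0.06, beside 0.01 over all genes. The highest mean of these genes was that of CTSZ (cathepsin Z), named after its values were seen, with log2 ratios of 0.57 and 1.37. Its mean of 0.97 was above that of any of the 39 genes, and in hybridization 1 it was 1.49-fold higher. By class, the median was 0.09 for 33 other metalloproteinases, 0.04 for 24 serine proteases, 0.02 for 27 serine protease inhibitors and 0.09 for 17 cathepsins, legumain and cystatins.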

How the data were processed

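Two-colour Agilent arrays of 1 pair of clones in dye swap were analysed. The deposited intensity values are the authors' median pixel signals and local backgrounds per spot, extracted with Agilent Feature Extraction (version 10.5.1.1 per the file headers, 8.5.1.1 per the labels). The deposited log10 ratios of red over green, in the same files and in the series table, were used as alternatives. The arrays' annotation build is not that of the promoter windows. Backgrounds were corrected with normexp (offset 50) in limma 3.58.1 (R 4.3.3). Control spots were removed, outlier spots left out, and ratios normalized by loess within each array. Spots of 1 probe were averaged. Levels per RNA were further scaled by Aquantile. A gene was represented by its brightest probe, kept where either RNA had 50% or more of its spots well above background, in each hybridization. Of 41000 probes, 36065 were kept. Of 19228 RefSeq accessions, 18024 were named through RefSeq, and RUNX2 through the accession the study gives. The criterion was 2-fold in both hybridizations, as in the study's methods. With 1 biological replicate, no test was run, and the number of arrays limits the precision. The script was tested on simulated data. All 39 genes could be named, and other probes where they differed by over 0.5 log2 units or in their call. The genes and lists were chosen with earlier results of these data known. A marker gene of the lists is not reported here.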

Additional observations from a re-analysis of the deposited data

How the results depend on the processing

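Of the 14 alternatives run for the 2-fold counts, some were bound to leave them unchanged, as set out below. No member was at least 2-fold higher in both hybridizations under any of the 14. None was at least 2-fold lower either, except ADAMTS6, the 1 gene called with the ratios of the scanner software and with the deposited table of the same ratios, and ADAMTS1 with hybridization 1 alone (0 to 1 genes with single hybridizations). At 1.5-fold, a bar added after seeing the data, those 2 sets of ratios gave 4 lower genes (ADAMTS1, ADAMTS6, CTSL and SERPINE2) and 1 higher (ADAMTS5). With single hybridizations, 3 genes were lower and 1 to 2 higher. By the mean of both, 3 were lower (ADAMTS1, CTSL and SERPINE2) and 2 were higher (ADAMTS5 and ADAMTS9). ADAMTS6 joined ADAMTS1 and SERPINE2 as lower with a normexp offset of 0, and MMP19 did so where any probe of a gene counted. The cause was not tested. The median of the members ran from 0.01 to 0.07 with single hybridizations and moved under none of its 12 alternatives by more than its spread. The sign of the mean was the same in the 8 ways of processing for 32 of 39 genes, including the 6 with a mean over 0.5 in size, and turned for 7 genes with means near 0. These 8 ways were not all distinct. Aquantile leaves the loess ratios as they are (MMP2 had a mean of -0.0784 with and without it). Its agreement on signs, counts and median was therefore fixed in advance. The deposited table repeats the scanner software's ratios (MMP2 -0.1276 and -0.1275) and is no separate check. Leaving out the filter on signal adds no member, since all 39 genes had passed it. Over all genes, the scanner software's ratios gave 117 lower and 46 higher at 2-fold, and median centring 73 and 44, against 84 and 22. No paired analysis was possible, because both hybridizations compare the same 2 clones and were treated as 1 replicate, and no test was run. Dim probes (among them MMP2, MMP11, MMP13, MMP14, MMP24, ADAMTS4 and ADAMTS6) were limited by signal over background.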
